A study of Rattus norvegicus with 2 samples.

Results

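Of the 22777 genes in the mRNA table, 10 were taken here by their gene names: the AMPK subunit genes Prkaa1, Prkaa2, Prkab1, Prkab2, Prkag1 and Prkag2, the AMPK-activating kinase gene Stk11, and Mtor, Rptor and Tsc2 of the mTOR branch. All 10 were found, and all 10 had at least 1 FPKM in both libraries. The tissue was the hypothalamus of Sprague Dawley female rats, with no treatment, collected before puberty on postnatal day 25 or at puberty on postnatal day 35, with vaginal opening as the sign of puberty. The study also staged rats by vaginal smear and took those in first estrus as pubertal, so age and estrous stage cannot be told apart here. The study took 3 rats per stage, and the tables hold 1 column per stage. Each stage therefore counts as 1 library, the spread between rats is unknown, and no difference between the stages was tested.

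AMPK is a kinase that senses cellular energy. Its holoenzyme has a catalytic alpha subunit, a beta subunit that acts as scaffold and binds glycogen, and a gamma subunit that binds AMP, ADP and ATP. LKB1, the product of Stk11, phosphorylates the alpha subunit and so switches AMPK on when energy is low. mTOR complex 1 is the growth-promoting counterpart and holds the kinase mTOR and the scaffold raptor, the products of Mtor and Rptor. AMPK restrains it by phosphorylating raptor and tuberin, the Tsc2 product, which with hamartin keeps the GTPase Rheb inactive. In the hypothalamus both kinases are known to link fuel supply to feeding and to the reproductive axis.

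Expression was given as FPKM, fragments scaled to transcript length and library depth, so levels can be compared between genes. Low FPKM values fell on steps, and from these the value of 1 fragment was derived. It was chosen so that the largest share of low values came out within 0.05 of a whole number of fragments. That share was 96.2% of 1221 values in the prepubertal library and 96.6% of 1431 in the pubertal library. Being the quantity fitted, it is no separate check. The depth implied was 1.28 times greater before puberty than at puberty. For the 10 genes this gave 152 to 3401 fragments before puberty and 124 to 2293 at puberty. Intervals below are 95% Poisson or exact binomial intervals on these numbers, and they cover counting error only. Fragments include PCR copies, which makes the intervals too narrow.

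The hypothalamic label was checked with 10 neuropeptide genes, whose FPKM summed to 2693 before puberty and 4097 at puberty, with 0 of the 10 listed at 0. Pmch made up 1675 and 2723 FPKM of these sums, and 8 of the 10 were higher at puberty while Avp and Gnrh1 were lower. Other tissues differed between the libraries too. Of 6 measured thalamus and cortex markers 5 had FPKM + 1 more than 25% higher before puberty. Camk2a went from 59.6 to 24.8 FPKM and Slc17a7 from 26.2 to 12.8 FPKM, while Calb2 went the other way, from 323 to 374 FPKM. The summed level, 439 and 431 FPKM, is dominated by Calb2 and so does not show these differences. All 4 red blood cell markers had FPKM + 1 more than 25% higher at puberty, with sums of 6406 and 12539 FPKM. The 5 neuron markers were all lower, Eno2 only from 544 to 541 FPKM, with sums of 1984 and 1883 FPKM. The 5 microglia markers were all higher, with sums of 113 and 141 FPKM. Astrocyte, oligodendrocyte, endothelium and choroid plexus markers were divided, with 2, 2, 3 and 3 lower and 3, 3, 2 and 1 higher. Of the 14029 genes with at least 1 FPKM in 1 library, 51.1% were lower and 48.9% higher at puberty. FPKM + 1 was at least 25% higher before puberty in 11.3% of them and at puberty in 8.07%. Pituitary markers summed to 31.6 and 44.4 FPKM, with Prl and Fshb at 0 before puberty. Their part in the values of the 10 genes was not tested. In whole tissue, fewer cells of a type and less RNA per cell cannot be told apart.

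The AMPK and mTOR genes differed little between the stages. Differences are log2 of (FPKM + 1) at puberty over (FPKM + 1) before puberty, so that positive values are higher at puberty. The 10 log2 ratios lay between -0.36 (Rptor) and 0.15 (Prkaa1), with a median of -0.18, against -0.01 for the 14029 genes with at least 1 FPKM in 1 library. In all, 6 genes were lower at puberty and 4 higher, where 51.1% of the 14029 genes were lower and 48.9% higher. A gene passed the threshold where FPKM + 1 of one library exceeded that of the other by at least 25%, which is a log2 ratio of -0.3219 or less (lower threshold) or 0.3219 or more (upper threshold). Only Rptor among the 10 passed the lower threshold, as did 11.3% of the 14029 genes. Of the 10 genes 0 passed the upper threshold, against 8.07% of genes. With the medians of the libraries made equal, 8.68% of genes passed the lower and 11.0% the upper threshold, and 0 of the 10 passed either.

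By role, both catalytic subunit genes were higher, the beta and gamma genes were divided, and Stk11, Mtor, Rptor and Tsc2 were all lower on the deposited scale, although all 10 genes were higher when Actb was made equal between the libraries. On that scale 10.2% of the 14029 genes were lower. The counting interval of the fold change lay below 0 on the log2 scale for 5 of the 10 genes, Prkag2, Stk11, Mtor, Rptor and Tsc2, and above 0 for Prkag1 alone. The corresponding shares of all genes were 23.6% and 19.4%. This interval is narrower for genes with more fragments, and it says nothing about other rats.

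**Figure D1:**
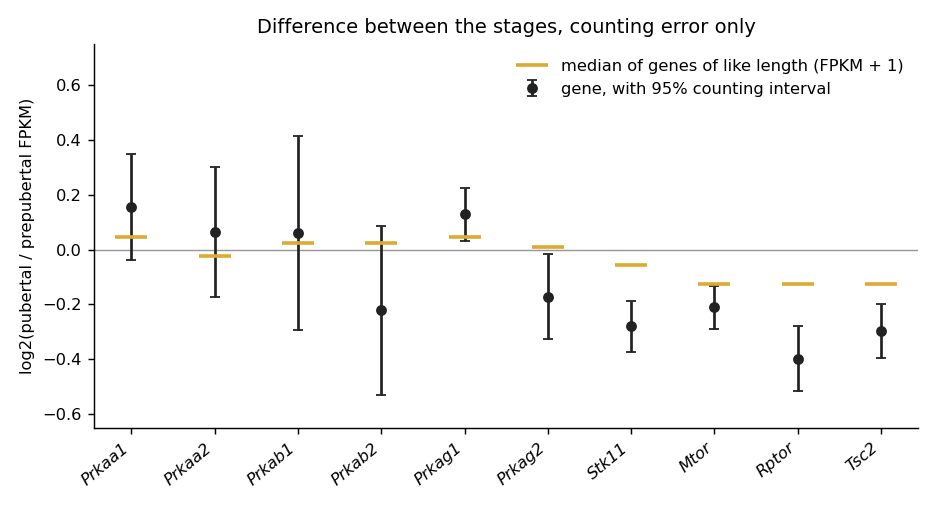
Log2 of the pubertal over the prepubertal FPKM for each gene (black points, y axis, no pseudocount) with its 95% counting interval, 1 library per stage. Yellow bars give the median log2 ratio of FPKM + 1 over genes of like transcript length. The points of Prkab2, Prkag2, Stk11, Mtor, Rptor and Tsc2 lie below both 0 and their yellow bar, while Prkaa1, Prkaa2, Prkab1 and Prkag1 lie above both. This is on the deposited scale, and with Actb made equal all 10 ratios of FPKM + 1 are above 0.

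Among the catalytic subunits, Prkaa1 (ENSRNOG00000012799) was listed at 16.1 FPKM (95% counting interval 14.7 to 17.7) before puberty and 17.96 FPKM (16.3 to 19.8) at puberty. Its log2 ratio was 0.15, and the intervals of the libraries overlapped. Prkaa2 (ENSRNOG00000007706), the alpha isoform typical of muscle and also found in neurons, had 6.65 and 6.96 FPKM, a log2 ratio of 0.06. Prkaa1 was thus the main alpha mRNA at both stages, with 70.8% of the summed alpha FPKM before puberty and 72.1% at puberty. The alpha sum went from 22.8 to 24.9 FPKM.

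Of the subunit classes, beta had the lowest summed level, 11.5 FPKM before puberty and 10.7 FPKM at puberty. Prkab1 (ENSRNOG00000001142) had 4.29 FPKM before and 4.48 FPKM at puberty, the lowest of the 10 genes in both libraries (log2 ratio 0.05). It rests on 152 and 124 fragments, and the interval of its log2 fold change, -0.29 to 0.41, is the widest of the 10. Prkab2 (ENSRNOG00000018166) had 7.22 and 6.20 FPKM, a log2 ratio of -0.19 whose interval (-0.53 to 0.09, no pseudocount) spans 0. Prkab2 held 62.7% of the beta FPKM before puberty and 58.1% at puberty, so the isoforms stood closer together in the pubertal library.

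Gamma had the highest summed level, 89.1 and 93.1 FPKM. Prkag1 (ENSRNOG00000014813) had 68.4 FPKM (65.3 to 71.5) before puberty and 74.7 FPKM (71.1 to 78.5) at puberty, the highest level of the 10 genes, above that of 87.7% and 88.5% of the 14029 genes. Its log2 ratio was 0.13. Prkag2 (ENSRNOG00000009085), the gamma isoform whose mutations cause a heart disease with glycogen storage, had 20.7 FPKM (19.3 to 22.1) and 18.3 FPKM (16.9 to 19.9), a log2 ratio of -0.16. Prkag1 therefore exceeded Prkag2 3.31-fold before puberty and 4.07-fold at puberty. Prkag3, the gamma gene of skeletal muscle, was near the floor, with about 1 and 2 fragments (0.0194 and 0.0495 FPKM). The gamma sum was 3.91 times the alpha sum before puberty and 3.74 times at puberty, and 7.73 and 8.72 times the beta sum.

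**Figure D2:**
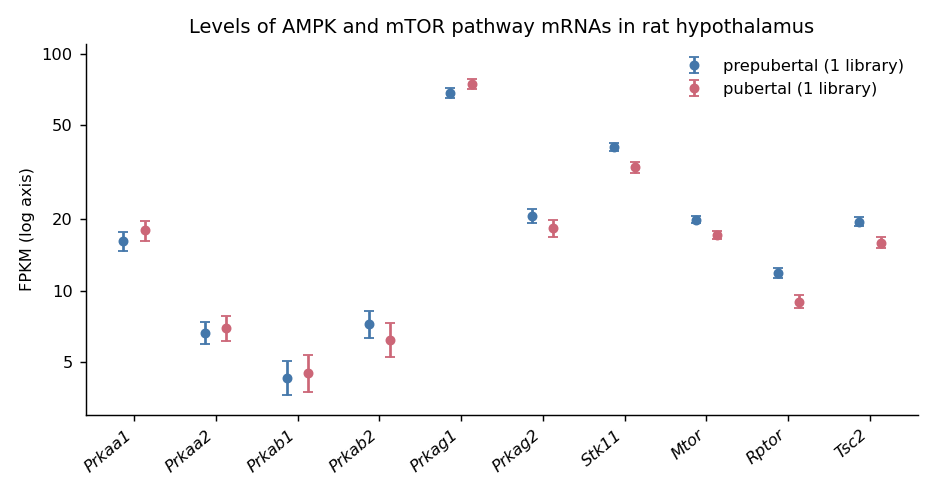
FPKM (y axis, log scale) of the 10 genes in the prepubertal (blue) and pubertal (red) library, with 95% Poisson intervals for counting error. Prkag1 stands highest at 68.4 and 74.7 FPKM and Prkab1 lowest at 4.29 and 4.48 FPKM, and the bars of the libraries separate for Stk11, Mtor, Rptor and Tsc2.

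The start regions of the highest gamma gene and of the nearly silent Prkag3 are shown to set sequence beside level. RefSeq start windows (build GRCr8, 250 bases before to 50 after the start, 5′ to 3′) were matched for 9 of the 10 genes, with 2 windows for Prkag2, and not for Rptor. CpG dinucleotides are in capitals. The window of Prkag1 lies at chr7:131859435-131859734 on the minus strand and holds 22 CpG, and that of Prkag3 at chr9:83753580-83753879 on the minus strand holds 12.
Prkag1: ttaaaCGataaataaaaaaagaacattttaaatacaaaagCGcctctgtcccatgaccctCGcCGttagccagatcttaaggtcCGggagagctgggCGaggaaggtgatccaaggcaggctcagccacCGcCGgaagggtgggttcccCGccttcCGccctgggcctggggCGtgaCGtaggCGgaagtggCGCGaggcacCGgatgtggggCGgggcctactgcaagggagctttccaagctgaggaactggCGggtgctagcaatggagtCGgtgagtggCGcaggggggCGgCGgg
Prkag3: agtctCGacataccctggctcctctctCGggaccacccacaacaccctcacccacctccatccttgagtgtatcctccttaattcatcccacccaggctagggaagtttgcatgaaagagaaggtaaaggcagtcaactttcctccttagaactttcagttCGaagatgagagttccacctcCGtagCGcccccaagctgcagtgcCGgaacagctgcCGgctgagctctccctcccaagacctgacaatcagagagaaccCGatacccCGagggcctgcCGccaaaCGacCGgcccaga

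The 10 windows of the AMPK and mTOR genes held 21 to 49 CpG, with a median of 35.5, against a median of 7 over 33469 windows of all genes. Those windows were taken whether or not the gene was expressed here, and windows of expressed genes alone were not compared. Mtor had the fewest, with 21, and Prkaa1 the most, with 49. GC content was 60% to 81.3%. Searched on both strands, the E-box CACGTG, the cyclic AMP element TGACGTCA and the TATA motif TATAAA were found in 0 of the 10 windows. They occur in 6.42%, 1.83% and 14.2% of all windows, and none of the 3 holds another. CpG number did not order the levels, since Prkag1, the highest gene, had 22 CpG and Prkab1, the lowest, had 36.

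Stk11 (ENSRNOG00000014287) was the most abundant gene outside the AMPK complex. It had 40.3 FPKM (38.7 to 42.0) before puberty and 33.2 FPKM (31.5 to 34.9) at puberty, a fall in FPKM of 17.7% between these libraries (log2 ratio -0.27). A lower ratio was found in 14.9% of genes. Stk11 mRNA stood 2.5-fold above Prkaa1 before puberty and 1.85-fold above it at puberty.

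Mtor, Rptor and Tsc2 were each lower in the pubertal library on the deposited scale, and each higher with Actb made equal. Mtor (ENSRNOG00000009615) had 19.9 FPKM (19.2 to 20.6) before and 17.2 FPKM (16.5 to 17.9) at puberty, a log2 ratio of -0.20. Rptor (ENSRNOG00000003821) had the largest difference of the 10, from 11.9 FPKM (11.3 to 12.5) to 9.003 FPKM (8.43 to 9.60), a log2 ratio of -0.36. Only 8.82% of all genes had a lower ratio. The kinase mRNA exceeded the raptor mRNA 1.68-fold before and 1.91-fold at puberty.

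Tsc2 (ENSRNOG00000011375) was the only gene of the 10 with several transcripts in the tables, and these differed unevenly. The summed level was 19.6 FPKM (18.8 to 20.4) before puberty and 15.9 FPKM (15.1 to 16.8) at puberty, a log2 ratio of -0.28. ENSRNOT00000052138 (5584 nt) went from 9.38 to 6.55 FPKM (-0.46), whereas ENSRNOT00000030886 (5524 nt) went from 10.2 to 9.38 FPKM (-0.11). ENSRNOT00000016221 (5653 nt) was listed at 0 in both libraries. The 3 transcripts are close in length, and how the authors' software divided shared fragments between them was not tested.

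Ordered by level, Prkag1 came first and Stk11 next at both stages. Before puberty Prkag2, Mtor and Tsc2 followed at 20.7, 19.9 and 19.6 FPKM with overlapping intervals, then Prkaa1 at 16.1 and Rptor at 11.9 FPKM. At puberty Prkag2, Prkaa1 and Mtor overlapped at 18.3, 17.96 and 17.2 FPKM, and Tsc2 at 15.9 FPKM overlapped Prkaa1 and Mtor but not Prkag2. Prkab2 and Prkaa2 had overlapping intervals in both libraries. Prkab1 was last, apart from all others before puberty but overlapping Prkab2 at puberty.

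Transcript length moved with the ratios. Among the 14029 genes, divided into 10 classes of length, the median log2 ratio went from 0.07 in the shortest class and 0.08 in the next to -0.13 in the longest (4438 to 17543 nt), in which 77.2% of genes were lower at puberty and 14.4% passed the lower threshold. Mtor (8556 nt), Rptor (6699 nt) and Tsc2 (5524 nt for the transcript with the highest FPKM) belong to this longest class. Relative to the median of their class, the log2 ratios were -0.07 for Mtor, -0.24 for Rptor and -0.16 for Tsc2. Stk11 (3125 nt) was -0.22 from its class, Prkab2 -0.22 and Prkag2 -0.17, and Prkaa1, Prkaa2, Prkab1 and Prkag1 lay 0.02 to 0.10 above theirs. No gene of the 10 changed sign, but 0 of the 10 then passed either threshold, where 11.0% of the 14029 genes passed the lower and 7.09% the upper one.

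**Figure D3:**
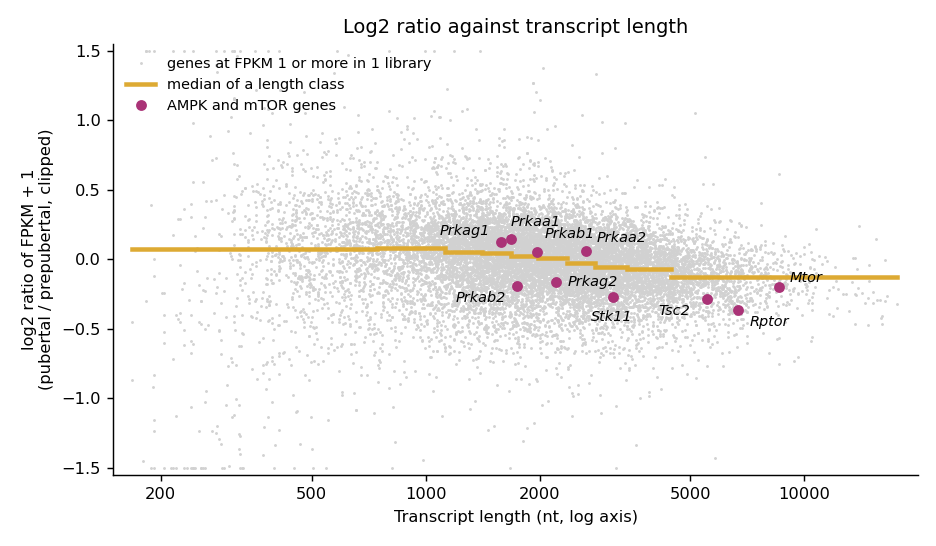
Log2 ratio of FPKM + 1 (y axis, values beyond 1.5 drawn at the edge) against transcript length in nt (x axis, log scale) for 14029 genes (grey), with the median of each of 10 length classes (yellow) and the 10 genes (purple). The yellow medians lie between 0.08 and -0.13 and are lowest for the longest transcripts, and Mtor lies nearest to its class among the mTOR genes.

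A lncRNA locus that the study lists as a neighbour of Prkag2, XLOC_319660, showed a shift between its transcripts. The study listed it on the difference of TCONS_00359716 between the same libraries, so the values are a description. TCONS_00359716 (1964 nt) had 4.75 FPKM before puberty and 1.59 FPKM at puberty, on 167 and 44 fragments, 2.99-fold less (log2 ratio of FPKM + 1 -1.15). A fall of at least 2-fold on this scale was seen in 4.49% of the 1806 lncRNA transcripts above 0 in both libraries. TCONS_00375351 (978 nt) moved the other way, from 5.72 to 9.20 FPKM (0.60). TCONS_00359715 had 3.04 and 2.09 FPKM and TCONS_00359717 had 1.28 and 0.682 FPKM.

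The locus as a whole differed less than its transcripts. Summed over the 4 transcripts, FPKM was 14.8 before puberty and 13.6 at puberty (log2 ratio -0.12), beside -0.16 for Prkag2 itself. The share of the locus in TCONS_00359716 went from 32.1% to 11.7%, and that in TCONS_00375351 from 38.7% to 67.8%. The sum of FPKM gives short transcripts more weight. Counted as fragments relative to depth, the locus fell by 26.7%, whereas the summed FPKM fell by 8.27%.

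**Figure D4:**
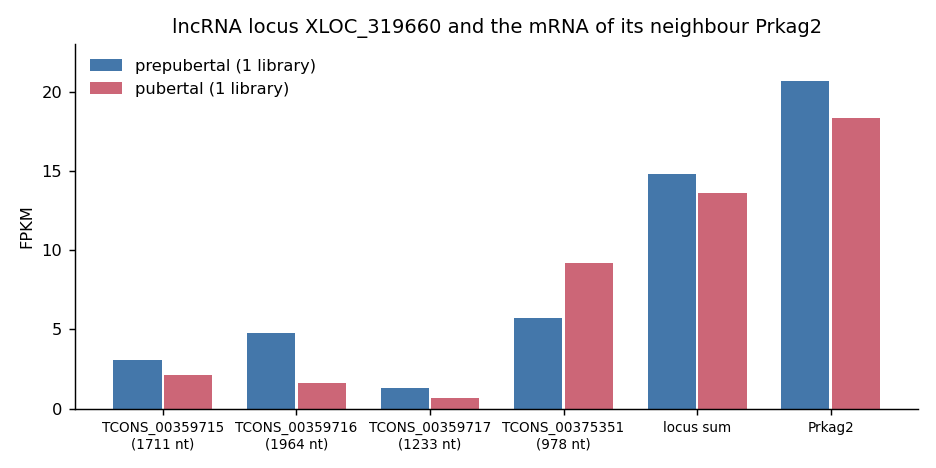
FPKM (y axis) of the 4 lncRNA transcripts of XLOC_319660, their sum and the Prkag2 mRNA in the prepubertal (blue) and pubertal (red) library, 1 value per bar. TCONS_00359716 drops from 4.75 to 1.59 FPKM and TCONS_00375351 climbs from 5.72 to 9.20 FPKM, while the sum and Prkag2 differ little.

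The deposited sequences show what separates these transcripts. TCONS_00359715 matches TCONS_00359716 base for base except that it lacks a run of 253 bases, positions 913 to 1165 counted from the 5′ end of TCONS_00359716. TCONS_00359717 lacks bases 435 to 1165, and TCONS_00375351 starts at base 203 and lacks a run of 771 bases. The 253-base run is the stretch found only in the transcript with the largest fall, and so is shown in capitals with 20 bases on each side.
TCONS_00359716: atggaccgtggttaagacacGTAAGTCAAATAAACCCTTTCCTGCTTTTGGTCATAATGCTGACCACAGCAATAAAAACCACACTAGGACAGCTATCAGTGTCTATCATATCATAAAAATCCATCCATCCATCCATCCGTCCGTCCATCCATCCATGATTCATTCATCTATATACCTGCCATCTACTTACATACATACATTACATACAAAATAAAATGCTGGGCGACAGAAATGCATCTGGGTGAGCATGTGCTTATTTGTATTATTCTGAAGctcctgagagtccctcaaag

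The run begins with GT and ends with AG, as does the longer run missing from TCONS_00359717, the letters that bound most introns. The run missing from TCONS_00375351, the transcript with more FPKM at puberty, begins with AG and ends with GA as aligned. Its place is not fixed, because the 253-base run also ends with AG. The missing run could equally end at base 1165, with AG, but no placement both began with GT and ended with AG. That transcript also ends 13 bases earlier. The 253-base run was found in 1 of the 4052 deposited lncRNA sequences, and its reverse complement in 0. As the 4 transcripts share most of their bases, fragments outside such runs were divided between them by estimation, and the counting intervals do not cover that step. In RefSeq (GRCr8) the next protein-coding gene after Prkag2 is Rheb, whose product activates mTOR complex 1. Rheb had 160.0 FPKM before and 154.7 FPKM at puberty, a log2 ratio of -0.05.

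The other genes of the pathway were described through 8 lists with 112 genes, of which 111 were matched and 109 had at least 1 FPKM in 1 library. Of these 109, 71 were lower and 38 higher at puberty on the deposited scale, where 51.1% and 48.9% of all genes were, with a median log2 ratio of -0.12, or -0.10 relative to genes of like length. The lower threshold was passed by 14 of the 109 and the upper one by 3, against 11.3% and 8.07% of all genes.

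Upstream of AMPK, the 7 genes for other activating kinases and for LKB1 partners had 4 higher and 3 lower, close to the 48.9% and 51.1% of all genes. Cab39l, which encodes a scaffold of the LKB1 complex, had the largest difference, from 22.2 to 32.6 FPKM (log2 ratio 0.53). Its relative Cab39 was the most abundant at 83.9 and 85.6 FPKM. Camkk2, the calcium-dependent AMPK kinase known from hypothalamic ghrelin signalling, had 12.1 and 10.7 FPKM (-0.16), and Map3k7 had 6.43 and 5.08 FPKM (-0.29).

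Of 12 measured AMPK-related kinases, which LKB1 also activates, 9 were lower and 3 of them past the threshold, where 51.1% of all genes were lower and 11.3% past it. Sik1, an activity-induced kinase, had 5.29 and 3.17 FPKM (-0.59), Mark4 7.15 and 5.40 FPKM (-0.35) and Sik2 7.87 and 6.07 FPKM (-0.33). Brsk1, a kinase of neuronal polarity, had 63.3 and 54.1 FPKM (-0.22) and was the most abundant before puberty. At puberty Snrk, named after its value was seen, stood higher, with 52.1 and 56.3 FPKM (0.11). Among 18 AMPK substrates 13 were lower, 2 of them past the threshold, beside the same shares of all genes (51.1% and 11.3%). Crtc1, a CREB coactivator, had 5.47 and 3.16 FPKM (-0.64). Ulk1, the autophagy kinase, had 7.41 and 6.0 FPKM (-0.27), and Mff, a mitochondrial fission factor, was the most abundant at 63.5 and 71.0 FPKM (0.16).

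The partners of Tsc2 were lower with it on the deposited scale. Tsc1, which encodes hamartin, had 7.32 and 5.12 FPKM (-0.44) and Tbc1d7, the small subunit of the complex, 8.77 and 6.58 FPKM (-0.37), so that both passed the threshold, as did 11.3% of all genes, of which 51.1% were lower. Of the partners of mTOR itself 5 of 10 were higher and 1 passed the upper threshold, near the 48.9% and 8.07% of all genes, and the median was 0.01. In this list Telo2 had 11.5 and 14.6 FPKM (0.3235, past the upper threshold), Prr5 5.20 and 4.21 FPKM (-0.25) and Mapkap1, a subunit of mTOR complex 2, 31.0 and 35.6 FPKM (0.20).

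Of 28 measured genes that signal amino acids to mTOR complex 1, 17 were lower and 11 higher, with 4 past the lower and 0 past the upper threshold. All genes had 51.1% lower, 48.9% higher, and 11.3% and 8.07% past the thresholds. Rraga, a Rag GTPase gene, had 35.3 and 22.1 FPKM (-0.65), Gatsl2 10.9 and 7.12 FPKM (-0.55) and Fnip2 5.92 and 4.55 FPKM (-0.3192, short of the threshold). Lamtor2, part of the Ragulator scaffold on lysosomes, was the most abundant at 245 and 284 FPKM (0.22). Downstream, 11 of 17 output genes were lower, again beside 51.1% of all genes, and the median of the list relative to genes of like length was 0.01. Tfe3 and Tfeb, transcription factors for lysosome genes, had log2 ratios of -0.38 and -0.30. Rps6 went from 378 to 573 FPKM (0.60), a value given as uncertain, since ribosomal protein genes are known to have near-identical copies and the effect of such copies was not tested. Eef2, the translation elongation factor, had 546 and 570 FPKM (0.06).

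On the insulin input 9 of 13 genes were lower, beside 51.1% of all genes, and 1 passed the lower threshold, beside 11.3%. This was Irs1, an insulin receptor substrate under the FPKM minimum for named genes and named after its value was seen, with 3.76 and 2.56 FPKM (-0.42). Irs2 was at 10.7 and 8.39 FPKM (-0.3217), Akt2 at 15.4 and 12.2 FPKM (-0.3172) and Igf1r at 5.36 and 4.41 FPKM (-0.23), these 3 short of the lower threshold.

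**Figure D5:**
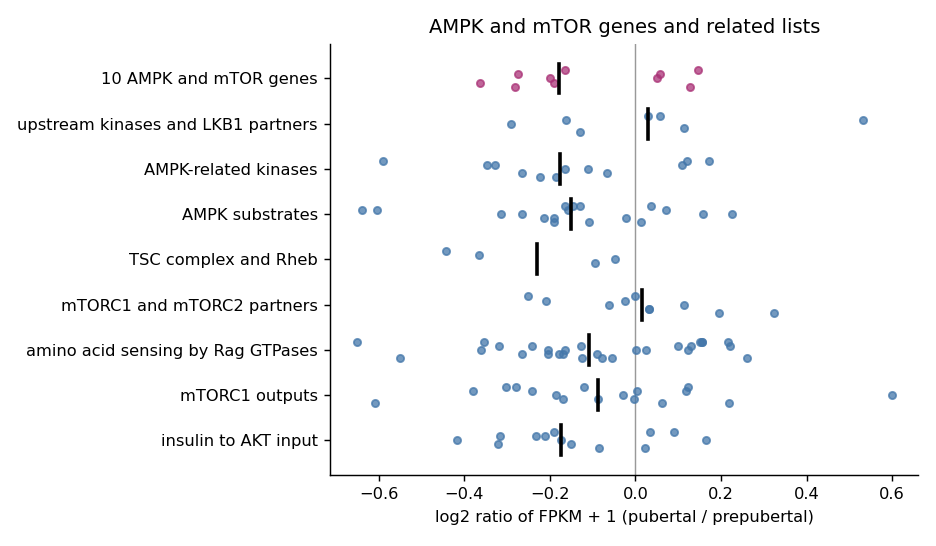
Log2 ratio of FPKM + 1 (x axis) for each of the 10 AMPK and mTOR genes (purple) and for the genes of 8 related lists with at least 1 FPKM in 1 library (blue), with list medians as black bars. The medians lie between -0.23 for the TSC complex and Rheb and 0.03 for upstream kinases and LKB1 partners, with -0.18 for the 10 genes.

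The direction of these small differences depended on how the libraries were scaled. Actb, a common reference gene, had 763 and 576 FPKM (log2 ratio -0.40). With Actb made equal, the median of all genes moved from -0.01 to 0.36 and that of the 10 genes from -0.18 to 0.20, and 0 of the 10 were lower. The upper threshold was then passed by 4 of the 10, against 55.9% of all genes. The median of the 10 genes lay below that of all genes on both scales.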

How the data were processed

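Hypothalamic RNA of prepubertal and pubertal rats was sequenced, and 2 libraries, 1 per stage, were compared. The authors depleted ribosomal RNA, made strand-specific libraries, used TopHat for alignment and both Cufflinks (2.1.1) and Scripture for assembly, and deposited FPKM computed with Cuffdiff (2.1.1). How the 3 rats of a stage were combined is not given in the sources used here. The submitters' processing notes name the build Rnor_5.0, whereas the paper's methods link an annotation of a later rat build. Which of them was used is not settled by these sources. The deposited comparison table also holds fold changes, p-values and q-values, which were not used. Its gene names and transcript lengths were.

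FPKM of the mRNA table were summed per gene, and log2 ratios were taken after adding 1. The FPKM of 13 mRNA transcripts differ between the deposited tables. Genes with at least 1 FPKM in 1 library formed the background. Single-transcript genes of 0.75 to 5.25 fragments gave the value of 1 fragment, after taking 255 (prepubertal) or 250 nt (pubertal) off each length. The derivation of this value and the intervals of the fold change were tested on simulated Poisson counts. The simulation held no PCR copies and no fragments shared between transcripts. With 1 library per stage no test was run.

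The genes and lists were chosen with earlier results of these data known. Genes named were the 10 members, Prkag3 and the lncRNA listed beside a member. In each pathway list they were the gene with the highest mean FPKM over both libraries and the 3 with the largest ratio at 5 FPKM or more. Rheb was named under both. Marker genes named are examples. Some genes that this rule names are not reported here. Alternatives were a pseudocount of 0.1, the top transcript, equal medians, equal Actb, the comparison table's FPKM, length classes and FPKM filters. The computation ran in Python 3.11.15 (pandas 2.3.3, numpy 2.4.6, scipy 1.17.1), and matplotlib 3.10.9 drew the plots.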

Additional observations from a re-analysis of the deposited data

How the results depend on the processing

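The 6 lower and 4 higher genes were the same under a pseudocount of 0.1, the transcript with the highest FPKM, equal medians, the FPKM of the comparison table, centring by length class and no filter on FPKM, and the median log2 ratio stayed between -0.19 and -0.11. Under a filter of 5 FPKM, 9 genes were left, as Prkab1 fell below it, and 6 were lower. The number of genes past the lower threshold went from 1 (Rptor) to 0 with equal medians, with equal Actb and with length classes. With equal Actb the median was 0.20, 0 genes were lower, 4 passed the upper threshold (55.9% of all genes did), and Rptor turned to 0.0060. The median of all genes was then 0.36. No paired analysis was possible because each stage has 1 library, and no library could be left out for the same reason. FPKM from 124 to 152 fragments, as for Prkab1, gave counting intervals wider than the difference seen.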
